A study of Mus musculus with 22 samples.

Results

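The comparison described here is that of fully-grown germinal vesicle (GV) oocytes of *Mili Dicer* double mutants with those of heterozygous controls, and its members were chosen by genotype label and sequencing run. It takes in 8 of the 22 RNA-seq samples of the series, 4 double mutants, homozygous for both alleles (*Dicer*-SOM/SOM together with *Mili*-DAH/DAH), and 4 controls, heterozygous for both (*Dicer*-SOM/WT together with *Mili*-DAH/WT), all from the paired-end run and all of the strain C57BL/6. The double mutants were 40, 35, 11 and 11 weeks old (samples 1o, 2o, 1 and 2), and the controls were 36, 38, 10 and 17 weeks old (samples 1o, 2o, 2 and 3). Each side thus holds 2 older and 2 younger samples. Every control carried 1 DAH and 1 SOM allele, so no sample of this comparison was wild type at either gene. The run also holds 2 RNAi mutants (*Dicer*-SOM/SOM with *Mili*-DAH/WT, 17 and 13 weeks old) and 1 piRNA mutant (*Dicer*-SOM/WT with *Mili*-DAH/DAH, 16 weeks old). The DAH allele changes the catalytic site of MILI. The SOM allele, made in a mouse line from 1 embryonic stem cell clone, is a fusion of *Dicer1* exons that encodes a tagged full-length protein and lacks the introns from which the oocyte-specific short isoform starts. Both alleles are carried by every cell of the animal and are not restricted to the oocyte. The labels do not say whether samples of a genotype came from separate animals where their ages are equal, so p-values measure the spread between these samples.

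In RNAi, the RNase III enzyme Dicer cuts long double-stranded RNA into short interfering RNAs (siRNAs), which guide Argonaute proteins to complementary transcripts. Mouse oocytes make an unusually active, truncated Dicer and hold many siRNAs from paired pseudogene and gene transcripts and from retrotransposons. piRNAs are made without Dicer and are bound by PIWI proteins such as MILI, which cleaves target transcripts and, in the male germline, is needed to silence retrotransposons. Both pathways act in the growing oocyte, so the double mutant asks what happens to transcripts when the RNAi of the oocyte and the slicing of MILI are lost together.

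Total counts were between 29681481 and 43540806 in double mutants and between 25550498 and 41981837 in controls. A floor of 3 counts corresponded to between 0.0677 and 0.116 CPM (read counts relative to library size, scaled by TMM) in these 8 samples. Such a floor covers counting error alone, since the PCR-amplified reads carry no molecular identifiers. Replicates differed by far more than counting error, by 17.6 to 92.4 times in the mean of the squared differences. The oocyte genes *Zp3* (982 to 1281 CPM in double mutants, 996 to 1087.5 CPM in controls) and *Gdf9* (2515 to 2824 and 2739 to 3781 CPM) were abundant in every sample. Granulosa and theca cell markers summed to between 206 and 277 CPM in double mutants and between 208 and 256 CPM in controls, and 1 of 19 tested markers was called higher and 1 lower (*Ptgs2* and *Nr5a2*, each call lost without any of 6 single libraries). Blood, vessel and stroma markers summed to between 117 and 128 CPM in double mutants and to between 137 and 144 CPM in controls, mostly from *Pecam1*, *Ms4a1* and *Tek*. Of 13 tested, 1 was called higher (*Ptprc*, its call lost without any of 6 single libraries) and 1 lower. The lower call was *Kdr*, at 0.647 to 2.38 CPM in double mutants and 3.05 to 4.97 CPM in controls. The haemoglobin genes were at or near 0 in every sample. Ribosomal RNA reads, followed by *Gm42418*, split the libraries into 2 sets, one at 4086 to 5503 CPM (double mutants 1o and 1, controls 1o and 3, both RNAi mutants) and one at 294 to 557 CPM (double mutants 2o and 2, controls 2o and 2, the piRNA mutant). Both sets hold 2 samples of each side, 1 older and 1 younger. In bulk RNA, fewer cells of a type and less RNA per cell cannot be told apart.

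*Dicer1* (ENSMUSG00000041415.10, minus strand of chromosome 12 from 104687742 to 104751952 in GRCm38) was low alike in every double mutant. It was at 60.8, 58.0, 58.7 and 53.2 CPM in double mutants 1o, 2o, 1 and 2, and at 680, 763, 502 and 614 CPM in controls 1o, 2o, 2 and 3. No double mutant came near the lowest control, and the RNAi mutants, at 53.8 and 62.1 CPM, were at the level of the double mutants. The mean was 9.02% of the control mean (two-sided exact permutation test, p = 0.0286, which is the least that 4 samples against 4 can give), and the log2 fold change was −3.47 (standard error 0.14, edgeR's quasi-likelihood F test, Benjamini-Hochberg adjusted p = 2.59e-09). Without 1 library at a time, the mean stayed between 8.48% (without control 2) and 9.63% (without control 2o) of the control mean. The controls carry 1 SOM allele, so these percentages are not relative to wild type. The SOM allele still encodes full-length Dicer, and the paper reports that a little full-length mRNA remained in *Dicer*-SOM/SOM oocytes. Counts per gene do not separate the isoforms. *Piwil2*, the gene of MILI, was at 7.71, 7.88, 5.28 and 3.05 CPM in double mutants and at 3.03, 4.0, 6.77 and 9.67 CPM in controls. Its groups overlapped over their whole range (log2 fold change 0.04, edgeR adjusted p = 0.958), and its sign turned to −0.11 without double mutant 1o, −0.12 without double mutant 2o, −0.18 without control 1o and −0.11 without control 2o. DAH is a substitution, so this level does not check the label.

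Of 20989 tested genes, 2592 were called higher in double mutants (12.3%) and 1855 lower (8.84%), at an edgeR adjusted p under 0.05. All 4 double mutants were above all 4 controls for 13.1% of tested genes and below them for 10.2%, and 2300 of the higher calls and 1587 of the lower calls had no overlap. The rises were larger than the falls. Among called genes, 1911 were at least 1 log2 unit higher and 731 at least 1 log2 unit lower, and 958 against 161 passed 2 log2 units. The median log2 fold change was 1.58 in the higher calls (1.56 with genes at 0 in every control set to their bound) and −0.85 in the lower calls, while the median of all tested genes was 0.00. Transcripts that no control sample held above the floor of 3 counts made up 208 of the called genes, and 25 were at or under the floor in every double mutant.

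Pseudogene transcripts leaned to the higher side and abundant transcripts to the lower side. Long noncoding RNAs were near the shares of all tested genes (12.3% higher and 8.84% lower). Of 2160 tested pseudogenes, 327 were called higher (15.1%) and 77 lower (3.56%). Of 3448 tested long noncoding RNAs, 465 were called higher (13.5%) and 282 lower (8.18%). Protein-coding genes had 1710 higher (11.4%) and 1475 lower calls (9.83%) among 14998. Of 2201 genes for which the average of the double mutant mean and the control mean reached 100 CPM, 227 were called higher (10.3%) and 264 lower (12%). Where this average was under 1 CPM, 630 of 6194 genes were called higher (10.2%) and 146 lower (2.36%). Biotype and level were not set apart. Pseudogenes with near-identical copies share divided reads, so their calls are not independent of each other.

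Among the abundant transcripts that rose, *Gm15915*, an antisense transcript within the gene of the guidance factor netrin 4 on chromosome 10, was at 359, 416, 378 and 365 CPM in double mutants and at 6.64, 7.73, 7.77 and 8.81 CPM in controls. The groups lay far apart with little spread within either (log2 fold change 5.62, standard error 0.14, adjusted p = 3.21e-11). *Ntn4* itself, on the other strand and counted without regard to strand, was at 1.48 to 3.01 CPM in double mutants and at 2.87 to 4.66 CPM in controls. *Saxo1*, which encodes a microtubule-stabilizing protein of cilia and sperm tails, was at 165, 95.2, 114 and 68.1 CPM in double mutants and at 7.55, 4.90, 4.66 and 7.61 CPM in controls. Its double mutants varied among themselves, but the lowest was far above the highest control (log2 fold change 4.16, adjusted p = 2.19e-07). *Gm42847* on chromosome 5 had a mean of 108 CPM in double mutants against 6.10 CPM in controls, and an unnamed gene on an unplaced contig of chromosome 1 (ENSMUSG00000079190.3) 148 against 7.97 CPM. The RNAi mutants held *Gm15915* at 339 and 386 CPM and *Saxo1* at 95.7 and 114 CPM, and in the piRNA mutant they were at 9.02 and 3.93 CPM.

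*Gm30262*, the second largest rise among abundant transcripts, differed from these. It was at 107, 118, 117 and 125 CPM in double mutants and at 4.75, 5.13, 6.35 and 6.60 CPM in controls. In the RNAi mutants it was at 13.0 and 10.8 CPM and in the piRNA mutant at 15.8 CPM, so that each single mutant was far below every double mutant. The log2 fold change was 4.36 against controls and 3.30 against RNAi mutants (adjusted p = 1.65e-06).

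The abundant transcripts that fell, besides *Dicer1*, were led by *Cux1*, which encodes a homeodomain transcription factor. It was at 30.5, 22.9, 31.2 and 24.8 CPM in double mutants and at 134, 126, 65.3 and 113 CPM in controls. Control 2 was lower than the other controls and still above every double mutant (log2 fold change −2.0, adjusted p = 1.31e-05). *Klhl9*, which encodes a substrate adaptor of a ubiquitin ligase needed in mitosis, was at 54.1, 58.4, 52.2 and 60.5 CPM in double mutants and at 139, 164, 163 and 165 CPM in controls. The log2 fold changes of *Klhl9*, the pseudogene *Gm5434* and *Gm31834* were −1.49, −1.66 and −1.81. *Gm31834* lies across the end of *Txndc5* on the other strand, which was at 149 to 192 CPM in double mutants and 144 to 170 CPM in controls and was not called. Among low transcripts, *Olfr1300-ps1*, an olfactory receptor pseudogene, fell from 21.5, 28.5, 24.9 and 16.5 CPM in controls to 0.674, 1.08, 1.61 and 2.44 CPM in double mutants (log2 fold change −4.0).

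Of the 10 largest rises by fold, 7 started from controls at or under the floor of 3 counts. *Fgf21*, which encodes a metabolic hormone, was at 2.02, 3.82, 0.832 and 2.30 CPM in double mutants and at 0 CPM in 3 controls and 0.0333 CPM in control 2o. Every double mutant was thus above every control, and the RNAi mutants were at 2.16 and 0.597 CPM and the piRNA mutant at 0. *Gm650*, a pseudogene on chromosome X, was at 0 in every control and at 0.542 to 2.45 CPM in double mutants, at least 10.5-fold higher against the highest floor of a single control library. The keratin-associated gene *Krtap4-13* was also at 0 in every control and at least 9.12-fold higher by the same floor, but it has 2 near-identical copies. Of the 10 largest rises, 7 lie in the chromosome 12 region described further on.

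**Figure D1:**
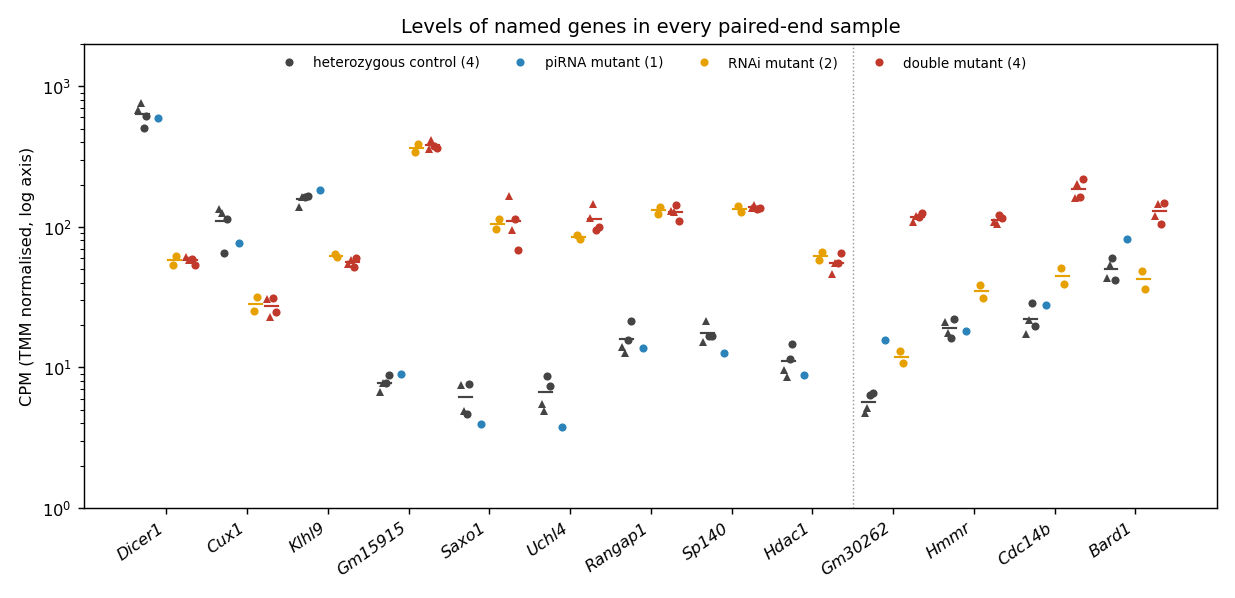
CPM of 13 named genes (x axis) on a log axis, in each sample of the heterozygous controls, the piRNA mutant, the RNAi mutants and the double mutants (triangles older, circles younger animals, short lines group means). To the right of the dotted line are 4 genes that were higher in double mutants than in RNAi mutants. *Dicer1* was at 53.2 to 60.8 CPM in double mutants and 502 to 763 CPM in controls, and *Gm30262* was at 107 to 125 CPM in double mutants while each other genotype stayed at or below 15.8 CPM.

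The siRNA targets, 197 genes that the study lists for antisense siRNAs in small RNA data of other oocytes, moved upward. Of 196 tested, 69 were called higher (35.2%, where 12.3% of all tested genes were) and 9 lower (4.59%, where 8.84% were), and 118 were not called. Their summed level was between 32650 and 33440 CPM in double mutants and between 23060 and 24860 CPM in controls, without overlap. The median log2 fold change over all 196 was 0.23. Without control 2, 75 were called higher and 15 lower, and without control 1o, 63 and 6. None was called against the RNAi mutants.

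Of the siRNA targets, *Uchl4*, a retrogene of a ubiquitin hydrolase, was at 116, 146, 94.7 and 99.1 CPM in double mutants and at 5.51, 4.93, 8.71 and 7.38 CPM in controls (log2 fold change 4.10, adjusted p = 1.84e-08). It lies within *Map2k1* on the other strand, and *Map2k1*, a kinase of the MAPK cascade, rose far less by fold (mean 259 against 166 CPM). Counting ignored strand and divided reads between overlapping genes, so *Uchl4* and *Map2k1* may share reads. *Rangap1*, which encodes the GTPase-activating protein of Ran, was at 130, 128, 143 and 110 CPM in double mutants and at 13.9, 12.6, 15.8 and 21.5 CPM in controls. Both RNAi mutants held it at the double mutants' level, 124 and 138 CPM. *Sp140*, a nuclear body protein gene, was at 137, 144, 134 and 135 CPM in double mutants, at 15.2 to 21.4 CPM in controls and at 12.7 CPM in the piRNA mutant. The tubulin genes *Tuba1a*, *Tuba1b* and *Tuba1c* (log2 fold changes 1.34, 1.25 and 1.26), the actin gene *Actg1* (1.18), the cyclophilin gene *Ppia* (1.89), the ribosomal protein gene *Rps23* (2.32) and the actin-bundling gene *Lcp1* (2.25) also rose. The largest falls were those of the tight junction gene *Cldn4* (3.11 to 4.92 against 7.67 to 9.67 CPM), *Gfod1* (32.1 to 38.7 against 53.4 to 78.5 CPM) and *Matr3* (87.9 to 111 against 154 to 207 CPM), none of them with overlap.

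Genes whose transcripts can pair with another transcript leaned the same way. In 484 of 20898 tested genes with a transcript in GENCODE M21 (2.32%), a transcript had an exactly complementary run of at least 100 bases with a transcript of a tested gene on another chromosome. Of these 484, 152 were called higher (31.4%) and 10 lower (2.07%), against 12.3% and 8.84% of all tested genes, and their median log2 fold change was 0.35. Most were outside the study's siRNA targets, where 142 of 469 were called higher (30.3%) and 10 lower (2.13%). Among the siRNA targets, 15 had such a run, and 10 of these were called higher and 0 lower. Whether these runs form double-stranded RNA was not tested, and runs that come from dispersed repeats were not set apart.

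The longest complementary run among the siRNA targets, 258 bases, joins *Rps23* on chromosome 13 with *C330021F23Rik* on chromosome 8. The middle 30 bases of the run in each transcript are shown, 5′ to 3′ as GENCODE M21 gives them. Those of *Arhgef12* on chromosome 9 and *Gm2427* on chromosome 1 are shown too. Both genes of each pair were tested here, without regard to strand, and the pairs behaved differently.
Rps23: gaggccaaacagccaaattctgccatcagg
C330021F23Rik: cctgatggcagaatttggctgtttggcctc
Arhgef12: ccagtttccattctgacactgtatggactt
Gm2427: aagtccatacagtgtcagaatggaaactgg
*Rps23* was at 78.4, 67.6, 77.1 and 44.5 CPM in double mutants and at 13.9, 10.3, 13.7 and 15.7 CPM in controls, and *C330021F23Rik* at 1.93 to 3.18 CPM in double mutants and 0.367 to 0.621 CPM in controls. Both rose by the same size (log2 fold changes 2.32 and 2.31), and since counting ignored strand and divided reads between places, reads of the shared run count for both. In the second pair, with a run of 202 bases, *Gm2427* rose from 0.713 to 1.70 CPM in controls to 4.68 to 6.16 CPM in double mutants (log2 fold change 2.24), while *Arhgef12*, a guanine nucleotide exchange factor gene, was at 196 to 240 CPM in double mutants and 201 to 320 CPM in controls and was not called (log2 fold change −0.37, adjusted p = 0.119). *Gm42847*, one of the largest rises, has a complementary run of 134 bases with *Acer3*, a ceramidase gene, which rose from 5.52 to 7.38 CPM in controls to 13.5 to 21.6 CPM in double mutants. Among the pairs of *Slc7a11* (699 CPM on average in controls and 690 CPM in double mutants, not called), *Tuba1a* and *Tuba1b* were called higher.

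Of 23 genes of the RNAi and miRNA machinery, 3 were called higher (13%) and 1, *Dicer1*, lower (4.35%), beside 12.3% and 8.84% of all tested genes. *Tsnax*, which encodes the translin partner that clears passenger strands, was at 320, 325, 420 and 333 CPM in double mutants and at 117, 111, 152 and 133 CPM in controls (log2 fold change 1.45). *Hsp90ab1*, a chaperone of Argonaute loading, was at 1102 to 1305 CPM in double mutants and 497 to 591 CPM in controls (1.16), and *Ddx6*, a helicase of P-bodies, had a log2 fold change of 0.68 whose call was lost without double mutant 1o (adjusted p = 0.0737), double mutant 2o (0.100), control 1o (0.0914) or control 2 (0.0702). Of 25 tested genes of the piRNA pathway, 2 were called higher (8%) and 1 lower (4%), and the median log2 fold change was −0.12. *Spocd1*, which links piRNAs to DNA methylation in male germ cells, was at 18.1, 13.8, 12.8 and 9.58 CPM in double mutants and at 4.43 to 6.02 CPM in controls, and the RNAi mutants were as high (14 and 15.5 CPM). The call of *Mael*, higher, was lost without double mutant 2o (adjusted p = 0.0513), and that of *Nanos2*, lower, without double mutant 1, 1o or 2o, control 1o or control 2 (adjusted p of at least 0.0510).

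Among 34 genes that silence retrotransposons in chromatin, 5 were called higher (14.7%) and 4 lower (11.8%), near the 12.3% and 8.84% of all tested genes. *Hdac1*, a histone deacetylase gene, was at 46.3, 54.8, 55.6 and 65.6 CPM in double mutants and at 9.62, 8.56, 11.4 and 14.6 CPM in controls. Every double mutant was above every control by a wide margin (log2 fold change 2.33, adjusted p = 1.02e-06), and the near-identical copy *Gm10093* on chromosome 17 rose as well (5.19 against 1.18 CPM). *Zfp809*, a zinc finger protein gene for retroviral repression (log2 fold change 1.80), and *Tet2*, a methylcytosine dioxygenase gene (1.47), were the next rises. *Dnmt3a*, the de novo DNA methyltransferase gene of the oocyte, was at 150 to 209 CPM in double mutants and 260 to 291 CPM in controls (log2 fold change −0.58, adjusted p = 0.00419). The number of lower calls was 2 without double mutant 1.

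Of 33 tested genes of double-stranded RNA sensing and interferon response, 4 were called higher (12.1%) and 5 lower (15.2%), beside 12.3% and 8.84% of all tested genes, and the median log2 fold change was −0.02. *Oas3*, which makes the activator of RNase L upon binding double-stranded RNA, was at 73.5, 56.6, 74.0 and 62.0 CPM in double mutants and at 12, 10.0, 9.46 and 10.6 CPM in controls (log2 fold change 2.66, adjusted p = 3.68e-08). The RNAi mutants lay between, at 40.9 and 38.3 CPM, but the difference from them was not called (adjusted p = 0.129). *Ifi44*, an interferon-induced gene, was at 0.474 to 1.15 CPM in double mutants and 0.0776 to 0.2 CPM in controls. *Ddx58*, the gene of the RNA sensor RIG-I, fell from 23.8, 25.9, 25.4 and 20.1 CPM in controls to 10.4, 12, 11.2 and 16.4 CPM in double mutants. The call of *Oas1b*, lower, was lost without double mutant 1, 1o or 2o, control 1o or control 2 (adjusted p = 0.0658 to 0.0943), and that of *Tlr3*, lower, without double mutant 1o or 2o, control 1o or control 2o (0.0783 to 0.114). Without double mutant 1o, 2 genes were called higher and 2 lower, and 3 were lower without double mutant 2o, control 1o, control 2o or control 2.

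Genes of the spindle and kinetochore, listed because spindle defects are known from oocytes without Dicer, held 12 higher and 4 lower calls among 51 tested (23.5% and 7.84%, beside 12.3% and 8.84% of all tested genes), with a median log2 fold change of −0.01. Those called higher were *Rangap1*, *Hmmr*, *Kifc1*, *Stag3*, *Prc1*, *Kif4*, *Kifc5b*, *Knl1*, *Tubb5*, *Ran*, *Kif2c* and *Bub1*. At least *Rangap1* and *Kif2c* are also siRNA targets, so this share is not independent of that list. *Hmmr*, which encodes a spindle assembly factor of the microtubule poles, was at 109, 105, 121 and 115 CPM in double mutants and at 21.0, 17.4, 16.2 and 22.2 CPM in controls. It was the 1 gene of the list called against the RNAi mutants, which held 38.7 and 31.2 CPM, and the double mutants were higher than these by 1.69 on the log2 scale (adjusted p = 0.00038). *Kifc1*, a minus-end kinesin gene, was at 67.7 to 77.9 CPM in double mutants and 20.9 to 27.6 CPM in controls, with the RNAi mutants at 72.7 and 77.5 CPM and with reads shared with its near copy *Kifc5b*. *Sgo2a*, which protects cohesion of centromeres in meiosis, fell from 125 to 146 CPM in controls to 82.8 to 88.9 CPM in double mutants, and *Kif23*, a kinesin gene of cytokinesis, from 619 to 822 CPM to 457 to 541 CPM. The number of lower calls was 2 without double mutant 2o or without control 2o. The call of *Cenpf*, lower, was among those lost there (adjusted p = 0.121 and 0.067) and was also lost without double mutant 2 (0.106), control 1o (0.0805) or control 3 (0.102).

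Of 35 genes of meiotic arrest and resumption, 3 were called higher (8.57%) and 5 lower (14.3%), beside 12.3% and 8.84% of all tested genes. Lower calls numbered 3 without double mutant 1o or double mutant 1. *Cdc14b*, which encodes a phosphatase that helps to hold oocytes in arrest, was at 161, 203, 162 and 217 CPM in double mutants and at 17.2, 21.9, 28.9 and 19.8 CPM in controls (log2 fold change 3.08, adjusted p = 8.31e-08). The RNAi mutants held 50.7 and 39.0 CPM, above each control and far below each double mutant, and the log2 difference from them was 2.05 (adjusted p = 0.000536). *Ccna2*, the cyclin A2 gene, rose from 148 to 194 CPM to 217 to 306 CPM. *Ensa* (16.1 to 25.0 against 10.9 to 12 CPM), the *Mos* kinase gene (102 to 154 against 70.5 to 98.5 CPM) and the phosphodiesterase gene *Pde3a* (543 to 704 against 440 to 509 CPM), each given with controls first, were lower in every double mutant.

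Of 41 tested genes of oocyte identity and maternal factors, 2 were called higher (4.88%) and 5 lower (12.2%), beside 12.3% and 8.84% of all tested genes. Lower calls numbered 3 without double mutant 2o or double mutant 1. *Oog4*, a member of an oocyte-specific gene family, was at 1371, 2013, 1689 and 2364 CPM in double mutants and at 553, 788, 802 and 691 CPM in controls. *Kit*, the receptor for the granulosa cell ligand, fell from 549, 651, 457 and 577 CPM in controls to 317, 352, 276 and 296 CPM in double mutants (log2 fold change −0.85, adjusted p = 0.000293), and the RNAi mutants (326 and 364 CPM) were as low. Of 36 genes of maternal mRNA storage and decay, 3 were called higher (8.33%) and 4 lower (11.1%), shares near those of all tested genes. *Zfp36l2*, which binds AU-rich elements and is needed for oocyte maturation, rose from 8.66 to 13.7 CPM to 15.4 to 29.3 CPM, and the m6A reader gene *Ythdf2* from 36.6 to 53.8 CPM to 61.5 to 94.3 CPM. *Cnot1*, the scaffold of the deadenylase complex, fell from 567 to 872 CPM to 443 to 533 CPM.

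Among 39 tested genes of DNA damage checkpoints and cell death, 6 were called higher (15.4%) and 7 lower (17.9%), beside 12.3% and 8.84% of all tested genes. *Bard1*, the partner of BRCA1 in DNA repair, was at 119, 144, 106 and 149 CPM in double mutants and at 43.5, 53.3, 60.4 and 41.6 CPM in controls. The RNAi mutants, at 48.5 and 36.1 CPM, were at the control level, and the piRNA mutant, at 81.3 CPM, lay between controls and double mutants (log2 difference of double from RNAi mutants 1.61, adjusted p = 0.00241). *Pmaip1*, which encodes the death factor NOXA, was low throughout but rose from 0.250 to 0.933 CPM to 2.57 to 7.72 CPM. The pro-death genes *Bcl2l11* (59.3 to 70.9 CPM in controls, 22.6 to 33.0 CPM in double mutants) and *Apaf1* (8.24 to 11.2 and 4.16 to 5.85 CPM) fell, as did the repair gene *Trp53bp1* (113 to 142 and 63.9 to 73.9 CPM). Without double mutant 1, 4 were called higher and 6 lower, and without double mutant 2, 7 and 4.

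Genes known as targets of let-7, a microRNA family, were listed because Dicer also makes microRNAs. The 11 mature family members in RefSeq (GRCm38.p6) share the seed in capitals, bases 2 to 8, which is the letters that a target site mirrors.
mmu-let-7a-5p: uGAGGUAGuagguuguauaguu
mmu-let-7b-5p: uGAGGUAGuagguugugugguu
The matching letters CTACCTC, searched on the transcript strand alone, occur in the longest transcript of 20 of 27 tested list members and of 20.3% of tested genes. Of the 4232 tested genes with a match, 11.3% were called higher and 10.2% lower, near the 12.3% and 8.84% of all tested genes. In the list, 3 genes were called higher (11.1%) and 1 lower (3.7%). *Igf2bp1*, which encodes an RNA-binding protein of fetal growth, was at 15.2, 11.2, 7.46 and 12.9 CPM in double mutants and at 0.984, 1.03, 0.694 and 0.466 CPM in controls, and *Hmga2*, a chromatin protein gene, was at 117 to 178 CPM and 65.7 to 69.4 CPM. *Trim71*, a ubiquitin ligase gene of stem cells, rose from 122 to 165 CPM to 224 to 298 CPM.

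**Figure D2:**
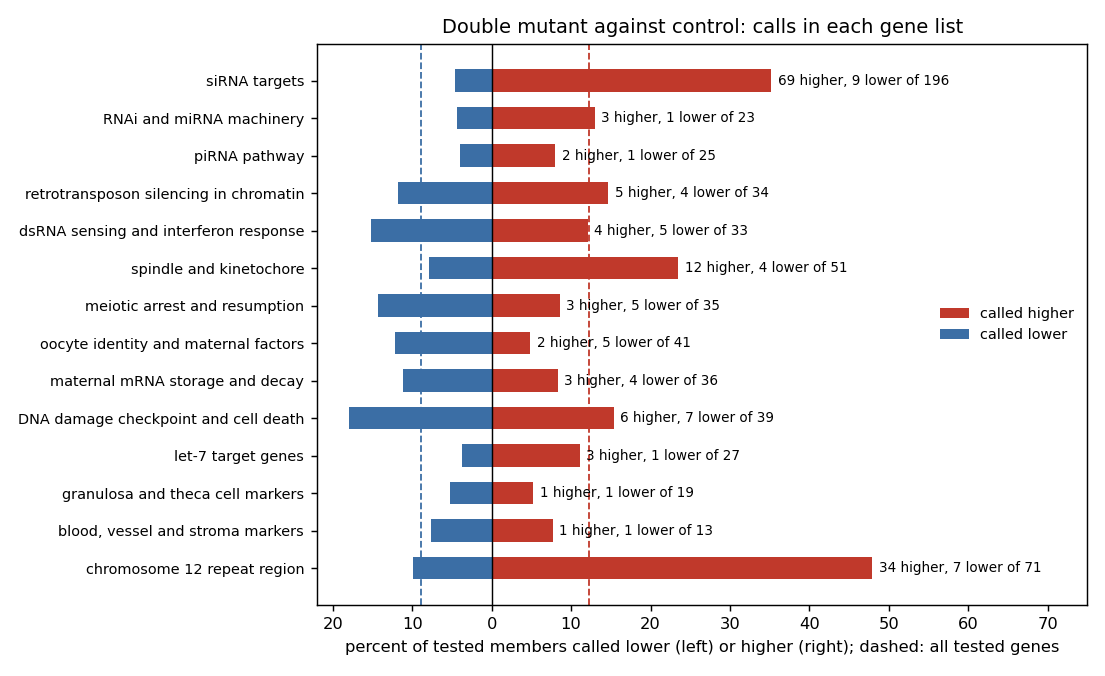
Percent of tested members of each gene list (y axis) called higher (bars to the right) and lower (bars to the left) in double mutants than in controls, with dashed lines at the percent of all tested genes. The chromosome 12 region (34 of 71 higher), the siRNA targets (69 of 196) and the spindle list (12 of 51) had the largest shares of higher calls. *Rangap1* and *Kif2c* are in both the siRNA target list and the spindle list.

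Some windows along the chromosomes held many of the rises. Of 821 windows of 1 Mb with at least 10 tested genes, 14 had a higher call in 50% of their genes or more and 4 a lower call. These windows were picked by their calls, so their counts describe them and are no test. On chromosome 1 from 85 to 86 Mb, around the *Sp100* nuclear body family, 23 of 32 tested genes were called higher and 0 lower. *A530040E14Rik* was at 511, 569, 485 and 561 CPM in double mutants and at 44.2, 46.6, 57.6 and 54.5 CPM in controls, and *C130026I21Rik*, which overlaps it, at 492 to 530 CPM and 31.2 to 42.4 CPM. In the RNAi mutants both were at the double mutants' level (means of 557 and 565 CPM), and in the piRNA mutant at 34.9 and 24.1 CPM. The neighbour *Cab39* was not called (57.7 and 60.3 CPM on average), and *Sp100* itself was not called. In the pregnancy-specific glycoprotein and *Ceacam* window of chromosome 7 (18 to 19 Mb), 12 of 24 were called higher. There *Psg20* was at 196, 213, 216 and 241 CPM in double mutants and at 60.5, 70.3, 53.5 and 61.3 CPM in controls, and the RNAi mutants (104 and 110 CPM) and the piRNA mutant (123 CPM) lay between them.

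On chromosome 5 from 14 to 16 Mb, around the *Speer4* family of spermatogenesis-associated proteins, 16 of 22 tested genes were called higher and 0 lower, most of them below 1 CPM. *Gm9758*, the most abundant member, was at 3.72, 2.53, 4.71 and 4.67 CPM in double mutants, at 0.123, 0.167, 0.860 and 0.272 CPM in controls and at 4.41 and 3.42 CPM in RNAi mutants. The promoters of this family share a run of 24 bases, shown in capitals in that of *Gm9758* (chr5:14914840-14915139, minus strand, RefSeq on GRCm38.p6, 250 bases before to 50 after the gene start).
Gm9758 promoter: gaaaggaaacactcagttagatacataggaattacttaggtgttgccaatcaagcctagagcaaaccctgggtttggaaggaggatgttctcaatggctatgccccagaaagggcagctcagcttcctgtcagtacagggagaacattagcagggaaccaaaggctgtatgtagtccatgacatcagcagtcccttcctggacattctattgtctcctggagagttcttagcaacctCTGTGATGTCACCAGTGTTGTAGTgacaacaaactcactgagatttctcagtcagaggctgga
The run was read on the gene's strand and is in 9 of 12848 promoters of tested genes (0.0700%), and 8 of these 9 genes were called higher. It was picked from promoters of genes called higher here, as the rarest of the runs that the most of them share. Its counts therefore describe it and are no test, and near copies in this family share reads. The ninth, *Gm17019*, was at 0.565 to 0.861 CPM in double mutants and 0 to 0.543 CPM in controls (adjusted p = 0.0967). In the alpha-defensin window of chromosome 8 (21 to 22 Mb), 9 of 12 were called higher, and its members were of 2 kinds. *Defa-ps8* and *Gm15313*, at 2.71 to 3.79 and 2.23 to 3.43 CPM in double mutants and at 0.0246 to 0.388 CPM in controls, were at 0 to 0.109 CPM in the RNAi mutants, whereas *Gm7849* and *Gm7861* were at means of 5.21 and 5.15 CPM there, as high as in double mutants (4.57 and 4.53 CPM).

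**Figure D3:**
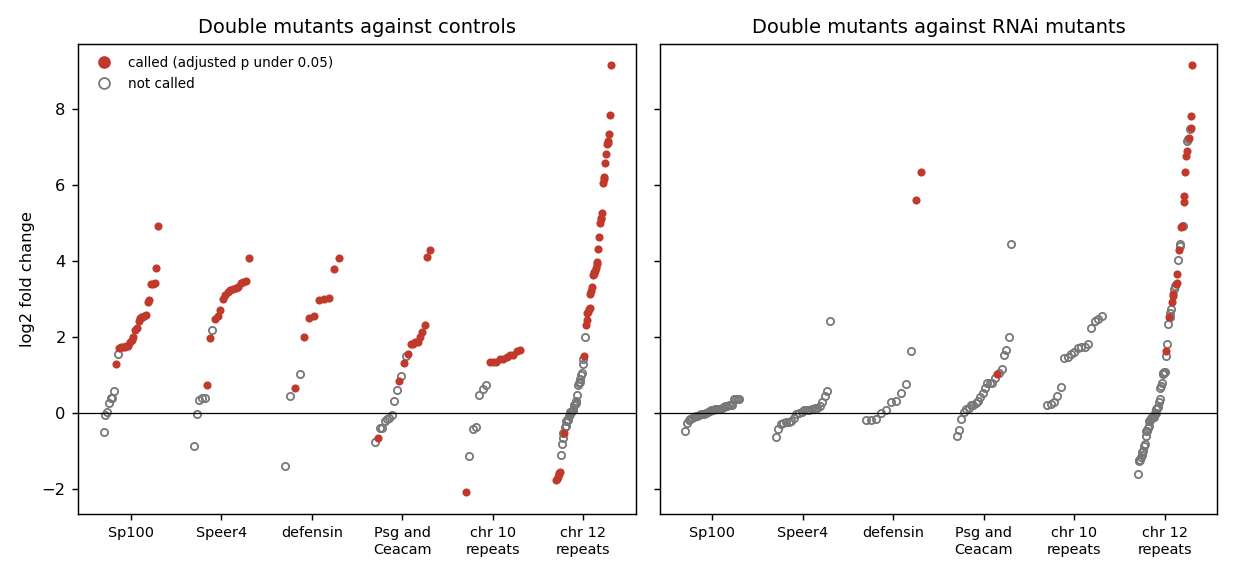
Log2 fold change (y axis) of every tested gene in 6 stretches of the chromosomes (x axis), for double mutants against controls on the left and against RNAi mutants on the right, with called genes filled. Of the *Sp100* window 23 of 32 genes were called higher against controls and 0 against RNAi mutants, and of the chromosome 12 stretch 34 of 71 and 20.

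A stretch near the start of chromosome 12 held many of the genes that were higher in double mutants than in RNAi mutants. The region, from 17900734 at the start of its first gene to 24617391 at the end of its last (GRCm38), holds 173 genes of the table, of which 71 passed the filter on low counts. Of these, 34 were called higher and 7 lower against controls, and 20 were called higher against RNAi mutants. The region was drawn around genes already known to differ from the RNAi mutants, so its own counts describe it and are no support. Pseudogenes made up 24 of the 34 and protein-coding genes 4. *Gm38699* was at 23.1, 19.1, 17.8 and 21.8 CPM in double mutants and at 0.0984, 0.0667, 0.194 and 0.233 CPM in controls. It was at 0.216 and 0.136 CPM in the RNAi mutants and at 7.74 CPM in the piRNA mutant, so the piRNA mutant alone among the other samples rose above the control range. *Gm10330* next to it was at 19.1, 14, 14.7 and 14.5 CPM in double mutants, at 0.0246 to 0.233 CPM in controls, at 0.0865 and 0.109 CPM in RNAi mutants and at 3.04 CPM in the piRNA mutant. *AC163633.1*, at 0 in every control and both RNAi mutants, was at 0.944 to 3.18 CPM in double mutants, at least 18-fold higher against the highest floor of a single control, and has 4 near-identical copies. Its call against the RNAi mutants was lost without RNAi mutant 1 (adjusted p = 0.075) or RNAi mutant 2 (0.206).

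Across the 34 genes called higher in the region, the piRNA mutant was above every control in 32 and below every double mutant in 29, and both RNAi mutants were below every double mutant in 33. Over all tested genes, these shares were 17.8%, 28.9% and 7.33%. The genes were chosen as higher in double mutants, in a region drawn around differences from the RNAi mutants, which largely fixes the last counts. The genes called lower in the region were *Gm48032*, *Gm6943*, *Gm49371*, *Gm5954*, *Gm48031*, *Gm9265* and *Grhl1*. *Gm49371*, a long noncoding RNA, fell from 53.8, 84.8, 43.9 and 68.5 CPM in controls to 17.0, 17.7, 13.4 and 29.9 CPM in double mutants. The summed levels of the region overlapped, 960 to 1040 CPM in double mutants and 924 to 1000 CPM in controls. The protein-coding neighbours *Cpsf3*, *Adam17*, *Ywhaq*, *Itgb1bp1* and *Taf1b* were not called.

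Transcripts of the genes called higher in the region share sequence, and a pair of runs of 30 bases is shown because 21 of the 34 hold one or the other. The first run was picked as one that the most of these genes share, and the second as one that the most of those without the first share. Both were picked from genes called higher here, so their counts in the region describe them and are no test.
First run: aattcgtggccgagacccttgaggactaca
Second run: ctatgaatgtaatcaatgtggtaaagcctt
The first run is in transcripts of 18 of 20898 tested genes (0.0861%), all 18 in the region. Of these, 12 were called higher, 0 lower, and 6 higher against RNAi mutants, with median log2 fold changes of 3.64 against controls and 3.21 against RNAi mutants. The second run is in 31 tested genes (0.148%). The 10 in the region were called higher, also against RNAi mutants (median log2 fold changes 5.65 and 5.23), and of the 21 elsewhere 0 were called higher. Reads of near-identical copies were divided between them, so these genes are not independent measurements.

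Promoters of the region share a shorter run, 16 bases in capitals in the promoter of *2410018L13Rik* (chr12:23010194-23010493, minus strand, RefSeq on GRCm38.p6). This noncoding transcript was at 5.04, 4.74, 4.85 and 6.20 CPM in double mutants, at 0.271, 0.233, 0.222 and 0.311 CPM in controls, and at 0.476 and 0.488 CPM in RNAi mutants.
2410018L13Rik promoter: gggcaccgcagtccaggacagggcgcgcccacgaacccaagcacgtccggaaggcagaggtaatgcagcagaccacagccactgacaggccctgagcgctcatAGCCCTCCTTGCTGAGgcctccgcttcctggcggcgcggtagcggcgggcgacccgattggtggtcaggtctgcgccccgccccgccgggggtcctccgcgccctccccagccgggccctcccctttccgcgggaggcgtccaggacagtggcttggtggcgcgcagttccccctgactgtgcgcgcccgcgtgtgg
On the gene's strand, it occurs in 5 of 12848 promoters of tested genes (0.0389%). The run was picked as one that the most promoters of the region's genes called higher share, so its counts are no test. *Gm38699*, *2410018L13Rik*, *5730507C01Rik* and *Gm21297* were called higher, and *Gm5784* was at 0.162 to 1.03 CPM in double mutants and 0.0277 to 0.311 CPM in controls (adjusted p = 0.0609). Near copies of a promoter share such letters by descent, so the match is a description. RefSeq starts *Gm38699* and *Gm21297* upstream of the genes counted here, so their promoters are not at the start of the measured transcripts.

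**Figure D4:**
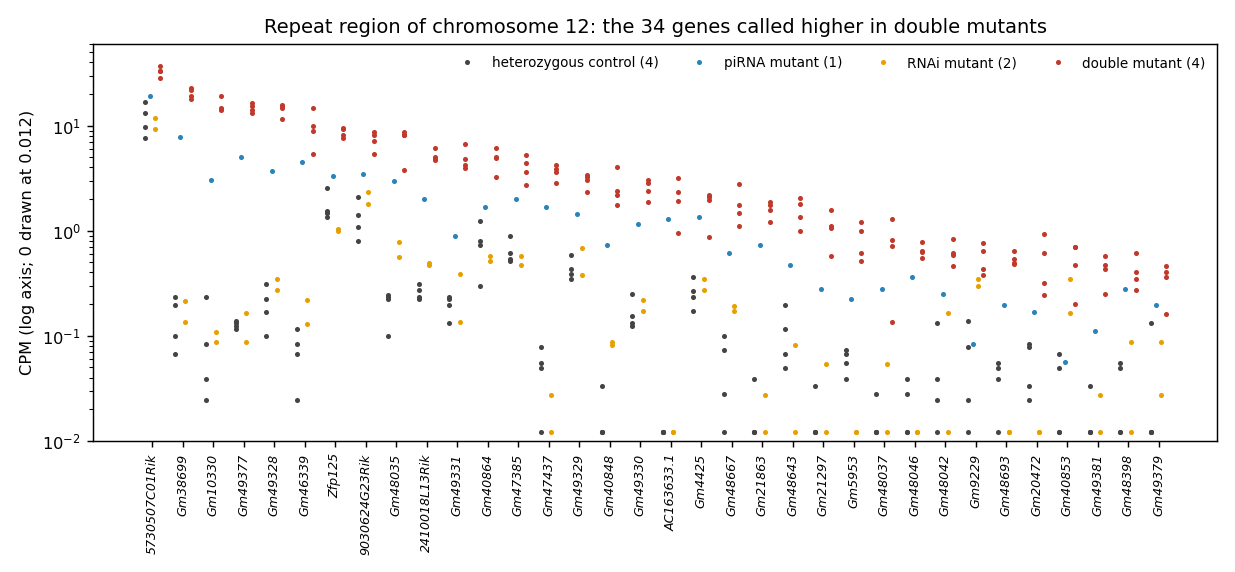
CPM (log axis, with 0 drawn just above the lower edge) of the 34 genes of the chromosome 12 region called higher in double mutants, in each sample of the 4 genotypes, ordered by their mean in double mutants. The piRNA mutant was above every control in 32 of the 34 genes (17.8% of all tested genes), and both RNAi mutants were below every double mutant in 33 (7.33% of all tested genes). The choice of genes largely fixes the last count.

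Set directly against the RNAi mutants, double mutants had 65 genes called higher (0.310%) and 1 called lower (0.00476%), with 1004 genes at an unadjusted p under 0.05. Without RNAi mutant 2, 25 genes were called, and without RNAi mutant 1, 54. DESeq2 called 170. Both RNAi mutants, of 13 and 17 weeks, had more rRNA, and a fit of the younger double mutants alone called 46. Of the 65, 25 were on chromosome 12, 20 of them in the region above, 27 were protein-coding and 0 were siRNA targets. The piRNA mutant was above every control in 57 of the 65, below every double mutant in 54 and above every double mutant in 5, where 17.8%, 28.9% and 27.3% of all tested genes were. Both comparisons share the double mutants, so being called in both is not independent.

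Outside that region, *Gm17821* (chromosome 12 from 67658527 to 67669276) was among the abundant genes of the 65. It was at 285, 376, 219 and 331 CPM in double mutants, at 24.8 and 23.9 CPM in RNAi mutants, at 72.5 CPM in the piRNA mutant and at 22.0 to 38.5 CPM in controls (log2 difference from RNAi mutants 3.64, adjusted p = 2.05e-05). Its neighbour on the other strand, *Gm47432*, was at 345, 451, 309 and 380 CPM in double mutants and at 64.6 and 67.1 CPM in RNAi mutants. *Cpox*, an enzyme gene of haem synthesis, was at 271, 262, 264 and 356.5 CPM in double mutants, at 89.8 and 73.6 CPM in RNAi mutants, at 134 CPM in the piRNA mutant and at 46.0 to 83.1 CPM in controls. *Syne1*, the nesprin gene that ties nuclei to the cytoskeleton, was at 130, 118, 111 and 74.7 CPM in double mutants and at 20 and 25.7 CPM in RNAi mutants. *Adi1*, of the methionine salvage pathway, was at 41.1, 108, 64.4 and 74.2 CPM in double mutants, at 9.82 and 6.13 CPM in RNAi mutants and, unlike the others, at 3.01 CPM in the piRNA mutant, below every control. *Gm43674* on chromosome 3, by fold the largest, was at 5.28 to 7.26 CPM in double mutants, at 0 in both RNAi mutants and at 3.04 CPM in the piRNA mutant. The gene called lower, *Gm18765*, was at 58.2 to 70.9 CPM in double mutants, 114 and 125 CPM in RNAi mutants and 122 to 183 CPM in controls. Its call was lost without any 1 of the 6 libraries of this comparison, at adjusted p between 0.0734 and 0.755.

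The effect of the double mutation was called as different between older and younger animals for 1 gene. In younger animals, 1223 genes were called higher (5.83%) and 508 lower (2.42%), and in older animals 1373 (6.54%) and 691 (3.29%). Each is a comparison of 2 samples against 2 whose spread was taken from the 8 samples of both genotypes. The tests of 2 against 2 rested on each library, and the count fell to 724 in younger animals without control 2 and to 862 in older animals without control 2o. Of the 4447 genes called over all 8 samples, 4446 had the same sign at both ages, which being called over all 8 largely fixes. The difference between the ages had 1 called gene (0.00476%), with 1049 at an unadjusted p under 0.05. That gene, *Parp8*, which encodes an ADP-ribosyltransferase, was at 73.4 and 38.8 CPM in older and 43.8 and 33.1 CPM in younger double mutants, and at 0.443 and 0.533 CPM in older and 23.4 and 32.5 CPM in younger controls. The older controls stood apart from each other sample, including the RNAi mutants (36.5 and 76.3 CPM) and the piRNA mutant (24.4 CPM). The call was lost without control 1o (adjusted p = 0.0504). *Piwil2* was lower in younger (log2 fold change −0.98) and higher in older double mutants (1.16) than in controls of the same age, but this difference was not called (adjusted p = 0.800).

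**Figure D5:**
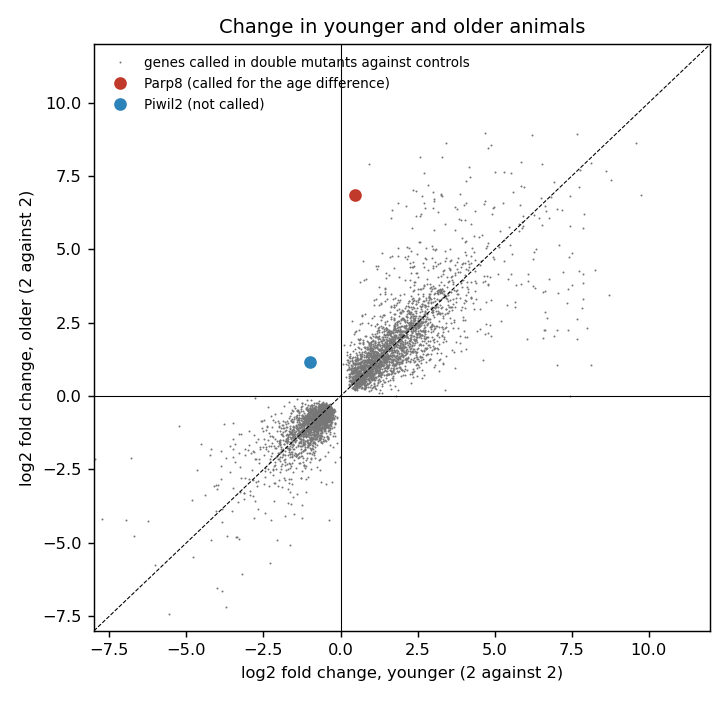
Log2 fold change of double mutants against controls in older animals (y axis) and in younger animals (x axis) for the 4447 genes called over all 8 samples. The dashed line marks equal change, *Parp8* (red) and *Piwil2* (blue, not called) are drawn larger, and all but 1 of the 4447 genes had the same sign at both ages.

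The single-end run offers *Dicer*-SOM/SOM against wild type, labelled for *Dicer* alone. It called 3351 genes higher (14.5%) and 3276 lower (14.2%) of 23151 tested. Of the 2592 genes higher in double mutants, 2423 were tested there, and 1644 were called higher (67.8%) and 14 lower, where 14.9% of the genes tested in both runs were called higher. Of 1855 lower genes, 1840 were tested and 1349 called lower (73.3%, where 16% of the genes tested in both runs were). The genes higher than in RNAi mutants were different in this respect, since of 52 tested there 4 were called higher and 8 lower. In the chromosome 12 region, 3 genes were called higher and 3 lower in the single-end run, of 71 tested in the paired-end run. Some of the 71, among them *Gm10330*, *Gm47437* and *AC163633.1*, were not tested in the single-end run. Its *Dicer*-SOM/SOM replicate 3 had 6468380 counts (a floor of 0.464 CPM), which limits what can be said of low transcripts there. *Gm38699*, at a log2 fold change of 7.11 here, was at 0.55 there (adjusted p = 0.324), while *Gm15915* was at 5.62 and 5.77 and *Rangap1* at 3.0 in both. The runs differ in read type, controls and breeding, so differences between them were not tested.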

How the data were processed

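RNA from GV oocytes was sequenced as unstranded paired-end libraries, made from total RNA with the Nugen Ovation kit. Per the methods and the labels, the authors mapped reads with STAR 2.5.3a to mm10 (GRCm38) and used featureCounts with the GENCODE M15 annotation, dividing reads that map to several places or genes and ignoring strand. The deposited values are therefore estimated counts, not normalized, for 52636 genes, and 31.6% of values were not whole. Near-identical copies share reads, as do overlapping genes on opposite strands.

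Counts were rounded and fitted with edgeR 4.0.16 (R 4.3.3): TMM, filterByExpr (minimum count 10, minimum total 15), quasi-likelihood F test, Benjamini-Hochberg adjustment, adjusted p under 0.05. The fit took the 11 paired-end samples, which share 1 estimate of spread. The fits by age took only the 8 double mutants and controls. The prior count behind fold changes was edgeR's default of 0.125. The single-end run was fitted apart. The scripts were tested on simulated data. Levels are CPM, compared between genotypes and not between genes.

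Named genes were those targeted, the 10 largest rises and falls with no overlap and at least 1 CPM in 1 group, the 5 largest each way at 100 CPM, 3 each way per list, and the leading genes by age and against RNAi mutants. *Ntn4*, *Txndc5*, *Gm10093*, the list members beyond 3 and the genes named in chromosome windows, complementary pairs and, outside that rule, against RNAi mutants were chosen after their values were seen. The comparison, its gene lists and the region of chromosome 12 were chosen with earlier results of these data known. Complementary runs, shared runs and copies (at least 50% of the words of 31 bases of the longest transcript) were read from GENCODE M21 transcripts, and promoters from RefSeq. Same-numbered samples deviated together with correlations of 0.135, 0.0276 and 0.177 across genes, so the numbers were not taken to pair the samples. Alternatives were DESeq2 1.42.0, other scalings and filters, terms for age, rRNA and replicate number, and each library left out.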

Additional observations from a re-analysis of the deposited data

Results flagged for a closer look

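In groups of 4 samples, a sample was singled out when its gap to the nearest other sample exceeded Dixon's 95% limit for the range of the group, which chance does in about 1 in 20 groups. Of 192 groups examined for the named genes, 13 (6.77%) held such a sample. The single high values were *Tsnax* in double mutant 1 (420 CPM, the others 320 to 333 CPM), *Gm10330* in double mutant 1o (19.1 CPM, the others 14 to 14.7 CPM), *Apaf1* in double mutant 2o (5.85 CPM, the others 4.16 to 4.39 CPM), *Gm6943* in double mutant 2 (4.33 CPM, the others 2.30 to 2.64 CPM), *Zar1* in control 2 (780 CPM, the others 494 to 499 CPM), *Zfp36l2* in control 3 (13.7 CPM, the others 8.66 to 8.81 CPM) and *Macrod2os2* in control 3 (2.17 CPM, the others 1.80 to 1.83 CPM). The single low values were *Klhl9* in control 1o (139 CPM, the others 163 to 165 CPM) and *Gfod1* in double mutant 2 (32.1 CPM, the others 37.7 to 38.7 CPM). For *Fgf21* and *Gm40848* (both 0.0333 CPM in control 2o), *Gm21863* (0.0388 CPM in control 3) and ENSMUSG00000096808.1 (0.0277 CPM in control 2), a single count stood against 0 in the other controls.

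The double mutant effect differed between the ages for *Parp8*, by 6.40 on the log2 scale, where the older controls were low. For *Piwil2*, the 2 older double mutants were above the older controls and the 2 younger ones below the younger controls. The difference was 2.14 on the log2 scale, and edgeR's quasi-likelihood test did not call it (adjusted p = 0.800).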

How the results depend on the processing

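Of the alternatives tried on the 4447 genes called against controls, DESeq2 gave 5101, no filter 4711, a filter at 5 CPM 2972, a term for age 3996 and a term for rRNA 4813. At least 1 log2 unit gave 2642 genes, and 100 of the 189 called over all lists. Within the libraries with more rRNA, an alternative chosen after seeing the data, 2641 genes were called, and within those with less rRNA 1299, and 86 over all lists. Leaving out 1 library gave 3697 to 4369 genes, and 168 to 200 over all lists. Younger animals had 1731 calls, 2614 with no filter and 724 to 1087 without 1 library. Older animals had 2064 calls, 3038 with no filter, and 862 to 1033 without 1 library. For the difference between the ages, 1 gene was called, 14 by DESeq2 (6 higher, 8 lower), 100 with no filter, and 0 (without control 1o) to 4 (without control 2o) without 1 library. Against RNAi mutants, 66 genes were called, 170 by DESeq2 (155 higher, 15 lower), 147 with no filter, and 25 to 61 without 1 library. *Dicer1* was at 8.476% to 9.635% of controls without 1 library. In the single-end run, 6627 genes were called and 5005 to 6416 without 1 library. *Piwil2* turned to −0.1064, −0.1159, −0.1813 and −0.1052 without double mutant 1o, double mutant 2o, control 1o and control 2o, and was at most 0.3831 (without control 3). The causes were not tested.

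With the replicate block, 3404 genes were called, 69.8% of the main calls were kept, and 167 were called over all lists. Double mutant 1 and control 3 have no partner of their number, so this contrast rests on 3 pairs. The smaller counts thus also reflect fewer samples. Higher calls for double-stranded RNA sensing went from 4 to 1, lower calls for retrotransposon silencing from 4 to 1 and lower calls of siRNA targets from 9 to 5. Every double mutant with such a partner correlated best with the control of its number, but 1 of 3 pairs was under 0.1. The samples of each pair also share an age class, older or younger, and an rRNA set. Double mutant 1 correlated best with control 3 (0.107), which it matches in age class and rRNA set. Number, age class and rRNA set can thus not be told apart by these correlations. Of 94 named genes called against controls, 79 kept their call without any 1 library, 78 within the libraries with more rRNA and 56 within those with less. The depth limits what can be said of transcripts below 0.116 CPM.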

Other observations

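On chromosome 10 from 118 to 119 Mb, a stretch picked after its values were seen, 10 of 17 tested genes were called higher in double mutants and 1 lower, with no gene called against RNAi mutants or higher in the single-end run. Of the near-identical repeats there, *Gm9044* was at 1.76 to 2.26 CPM in double mutants, at 0.660 to 0.805 CPM in controls and at 1.08 and 0.326 CPM in RNAi mutants. *Iltifb*, a cytokine gene among these repeats, went the other way, from 2.87 to 8.44 CPM in controls to 0.576 to 1.45 CPM in double mutants (log2 fold change −2.09, edgeR adjusted p = 0.0016).

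Per chromosome, the share of tested genes called higher ran from 8.90% on chromosome 19 to 17.1% on chromosome X, and chromosome 1, which holds the *Sp100* window, had 15.9%. The share called lower ran from 6.15% on chromosome X to 12.2% on chromosome 18.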
